A study of Drosophila melanogaster and Drosophila simulans and Drosophila yakuba with 4 samples.

Results

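The 60 genes described here build, modify, degrade or bind chitin in Drosophila melanogaster, or belong to the chitinase-like Idgf or Tweedle cuticle protein families. They were chosen by gene symbol, by a rule that uses no measured value: symbols that begin with Twdl or obst-, or with Cht, Idgf or Cda and a digit, together with kkv, Chs2, serp, verm, Gasp, knk and mmy. All 60 matches in the gene name table are among the 15492 genes listed for the D. melanogaster library, which is 1 of 4 libraries with 60411 listed genes in all. RNA was taken from whole animals at the white prepupa stage, when pupariation begins, of D. pseudoobscura, D. yakuba, D. melanogaster and D. simulans, with 1 library for each species. No treatment or mutation is named for the samples, their tissues were not separated, and their sex is not stated. For the library titled D. melanogaster the organism field names D. yakuba. The title was used, since 14872 of the 15492 identifiers are in the D. melanogaster gene table. Without a second library there is no replicate, so no test was made and the levels are a description of 1 library.

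Chitin is a polymer of N-acetylglucosamine that stiffens the cuticle of insects, the lining of their tracheae and the peritrophic matrix around the food in the midgut. Chitin synthases in the cell membrane make the polymer from UDP-N-acetylglucosamine, deacetylases modify it outside the cell, chitinases cut it, and proteins with chitin-binding domains organise it. In the hours after pupariation the larval cuticle is tanned into the puparium, and the epidermis then separates from it and later makes a new pupal cuticle. Tweedle proteins are a family of structural cuticle proteins found in insects.

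Levels are given as FPKM, the sequenced fragments of a gene for each kilobase of its transcript and relative to the depth of the library, and since this unit is per length it can be set side by side between genes. The lower and upper bounds in brackets are those of Cufflinks. The bounds were solved for the number of reads behind each value, called implied reads here, and the library holds 12038283 of them. The 60 genes took 49109 of these reads (0.408%). Solved in this way, 24 of the 30 members with fewer than 300 reads gave a whole number within 0.05 reads. Those that did not were kkv, Chs2, mmy, Cht2, obst-F and obst-E. An interval for a ratio of FPKM is a 95% exact binomial (Clopper-Pearson) interval on the implied reads, and like the bounds it does not cover variation between libraries. Implied reads were rounded to whole numbers for these intervals, so those that use kkv, Chs2, mmy or obst-F are less certain than the rest.

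Of the 60 genes, 38 (63.3%) stood at FPKM 1 or more, against 74.5% of all genes listed. The Tweedle family and the other genes differed in this share. Of the 34 genes outside the family 32 (94.1%) were at FPKM 1 or more, and of the 26 Tweedle genes 6 (23.1%) were. The median was 10.5 for the 34 genes, 0.0355 for the Tweedle genes and 6.90 for all genes listed. Levels ran from 0 in 13 Tweedle genes to 560.4 for obst-A, and 6 members were at FPKM 100 or more, which 9.28% of all genes listed reached. These were obst-A, Idgf4, Cht10, Gasp, Idgf1 and Idgf2, and together they held 71.2% of the FPKM summed over the members. Just above FPKM 1 stood Cht9 at 1.09 and Chs2 at 1.37, and just below it TwdlO at 0.750 and obst-E at 0.552.

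**Figure D1:**
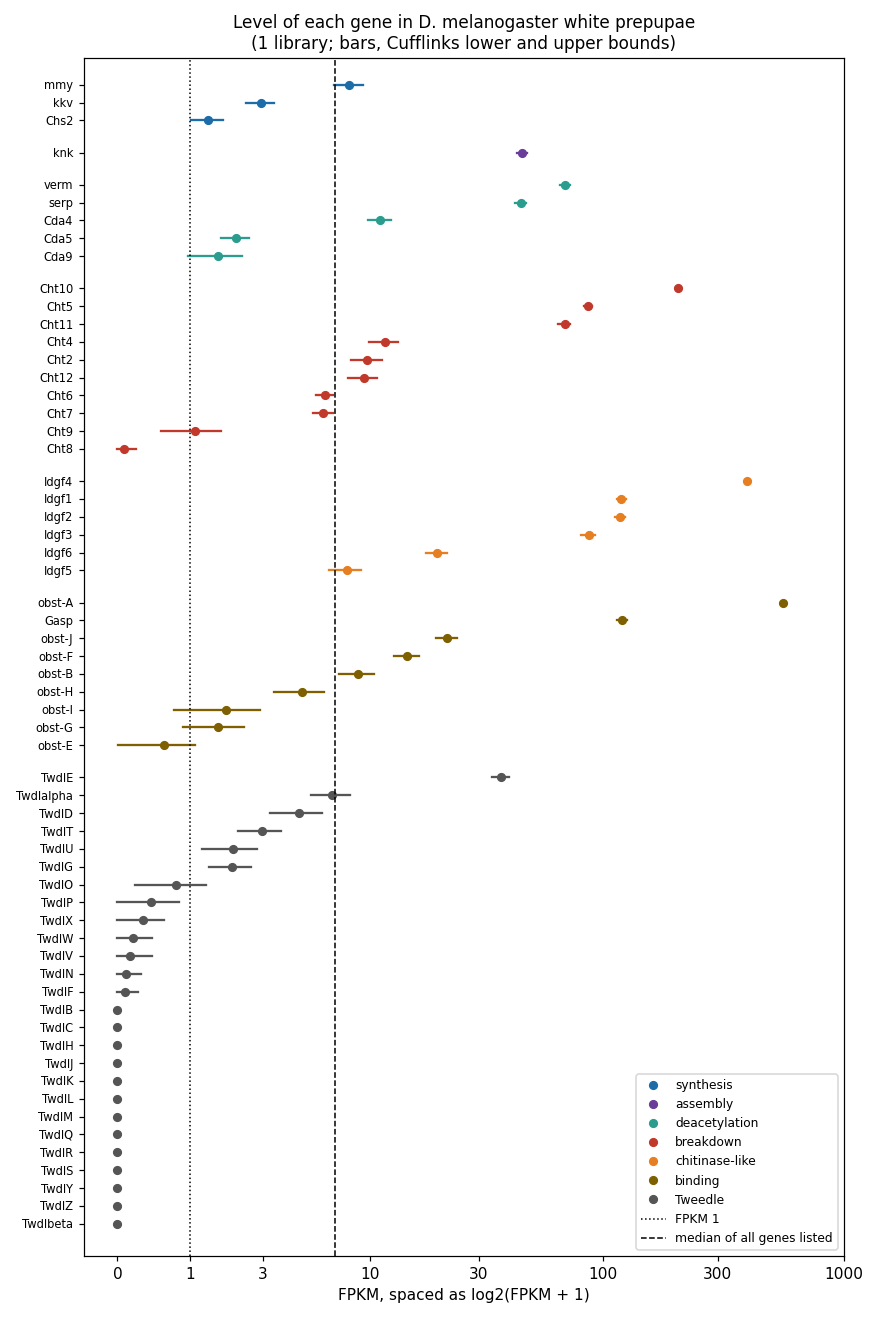
FPKM of each of the 60 genes in the D. melanogaster white prepupa library, by role, with the Cufflinks lower and upper bounds as bars and the axis spaced as log2(FPKM + 1). The dotted line marks FPKM 1 and the dashed line the median of all genes listed (6.90). Of the 26 Tweedle genes, 20 lie left of the dotted line.

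Both chitin synthase genes were below the median of all genes listed (6.90), and mmy, which acts before them, was above it. kkv (FBgn0001311), the chitin synthase of the epidermis and tracheae, stood at 2.92 (bounds 2.40 to 3.44), at the 36.3rd percentile of all genes listed. Chs2 (FBgn0029091), the chitin synthase known from the gut, stood at 1.37 (1.02 to 1.72). kkv was therefore 2.13 times as high per length as Chs2 (interval 1.56 to 2.95). This interval used 124 and 61 implied reads, rounded from 124.191 and 61.2744, so the reads of neither gene came out whole. mmy (FBgn0259749), the UDP-N-acetylglucosamine pyrophosphorylase that makes the precursor, was the highest of the 3 at 8.08 (6.86 to 9.30), which is 2.77 times kkv (2.19 to 3.51). In RNA of whole animals fewer cells of a type and less RNA per cell cannot be told apart, so these levels do not give the amount of a synthase in the cells that use it.

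In the dm3 coordinates of the files kkv lies on chromosome 3R from 1203815 to 1218587 and Chs2 on 3L from 21955501 to 21963064. The annotation of the newer build dm6 gives both as protein-coding, with 11 or 12 exons for kkv and 10 for Chs2, and with longest proteins of 1615 and 1393 amino acids. knk (FBgn0001321), on 3R from 5948087 to 5951386, encodes a membrane-bound protein of the cuticle that is known to organise new chitin and, in the beetle Tribolium, to protect it from chitinases. It stood at 46.0 (43.8 to 48.1), 15.7 times kkv (13.1 to 19.0). An antisense RNA of the dm6 annotation, with no level analysed here, covers 64.0% of its exonic bases. No source used here states the strand of the reads, so those of knk and of this RNA cannot be told apart.

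The median of the 5 chitin deacetylase genes was 11.2, and all 5 reached FPKM 1, against 74.5% of all genes listed. serp (Serpentine) and verm (Vermiform), secreted deacetylases known for setting the length of tracheal tubes in the embryo, were the highest. serp stood at 45.3 (42.8 to 47.9) and verm at 69.4 (66.0 to 72.9), so serp was at 0.653 times verm (0.607 to 0.703). Both lie on the minus strand of 3L in a stretch of 17.98 kb, from 19683133 to 19701115, with no other listed gene inside. Cda4 followed at 11.2 (9.82 to 12.5), and verm was 6.22 times as high (5.47 to 7.09). Cda5, whose longest annotated protein has 1998 amino acids, was at 2.08 (1.67 to 2.50) and Cda9 at 1.60 (0.949 to 2.26), and the bounds of these last overlap.

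Of the 10 chitinase genes 9 were at FPKM 1 or more, against 74.5% of all genes listed. A few of the 10 held most of the signal. Cht10 (FBgn0250907), on 2L from 22892306 to 22918647 with a longest protein of 2286 amino acids, stood at 204.6 (201.3 to 207.9) and held 50.5% of the FPKM summed over the 10. Cht5 (FBgn0038180), on 3R from 9593271 to 9596454, is related to the moulting chitinases of other insects. It stood at 87.1 (83.6 to 90.6), and Cht10 was 2.35 times as high (2.25 to 2.45). Cht11 was at 69.2 (65.3 to 73.2), and the bounds of these 3 genes do not overlap. Cht10 was 70.1 times as high per length as kkv (58.7 to 84.3), and Cht5 29.8 times (24.9 to 36.0).

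The other chitinases lay between 0.0659 and 11.7. Cht4 at 11.7 (9.94 to 13.4), Cht2 at 9.78 (8.19 to 11.4) and Cht12 at 9.40 (7.98 to 10.8) formed a run in which the bounds of neighbours overlap. Cht6 at 6.18 (5.60 to 6.76) and Cht7 at 6.09 (5.40 to 6.77) also have overlapping bounds. Cht6 has the longest annotated protein of the members, with 4611 amino acids. Cht9 at 1.09 (0.507 to 1.67) and Cht8 at 0.0659, a single implied read, were lowest. dm6 places an antisense RNA with no level analysed here over 76.9% of the exonic bases of Cht9.

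**Figure D2:**
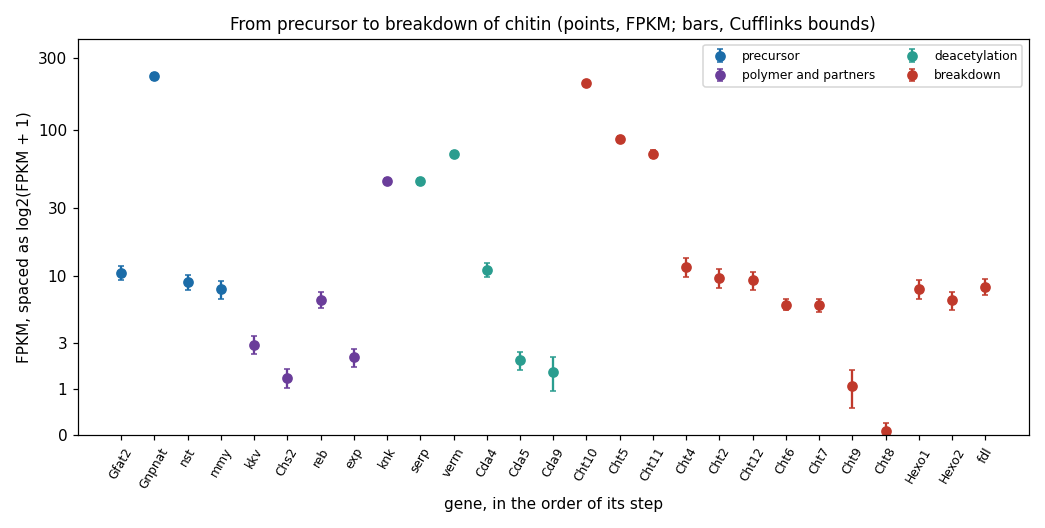
FPKM of members and other pathway genes in the order of their steps, from the precursor to the breakdown of chitin, with Cufflinks bounds as bars and the axis spaced as log2(FPKM + 1). kkv at 2.92 and Chs2 at 1.37 lie below knk at 46.0, verm at 69.4 and Cht10 at 204.6.

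The Idgf genes, imaginal disc growth factors, encode secreted relatives of chitinases that lack their catalytic activity and were first described as factors that support the growth of imaginal disc cells in culture. As a group they had the highest median of those with more than 1 gene, 102.7. All 6 were at FPKM 1 or more, against 74.5% of all genes listed. Idgf4 (FBgn0026415, chromosome X, 9822299 to 9825012) stood at 397.5 (387.8 to 407.2). It was 3.33 times as high as Idgf1 (3.17 to 3.49). Idgf1 at 119.5 (114.3 to 124.7) and Idgf2 at 118.1 (112.8 to 123.4) could not be told apart, with a ratio of 1.01 (0.951 to 1.08). Idgf3 was at 87.3 (81.5 to 93.1), and Idgf2 was 1.35 times as high (1.25 to 1.46).

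Idgf6 at 19.8 (17.8 to 21.9) and Idgf5 at 7.85 (6.51 to 9.18), both on 2R but not next to each other, were the low members of the family. Idgf3 was 4.40 times as high as Idgf6 (3.90 to 4.98), and Idgf6 2.53 times as high as Idgf5 (2.07 to 3.10). The 6 predicted proteins are of nearly the same length, from 439 to 452 amino acids, while their levels ran from 7.85 to 397.5.

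The chitin-binding group holds the obstructor genes and Gasp, whose proteins carry the cysteine-rich chitin-binding domains that are also found in peritrophins. The median of the 9 genes was 8.84, and 8 of them reached FPKM 1, against 74.5% of all genes listed. obst-A (FBgn0031097, chromosome X, 20110934 to 20114254), known as a scaffold of the larval cuticle that works with serp and knk, stood at 560.4 (547.3 to 573.6), the highest level of all 60 genes and the 98.1st percentile of the library. It alone held 76.2% of the FPKM summed over the group. Gasp (FBgn0026077, 3R, 1914951 to 1926609), a chitin-binding protein of the tracheae, followed at 120.3 (115.01 to 125.6), and obst-A was 4.66 times as high (4.43 to 4.89).

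The remaining obstructor genes formed a descending series. obst-J was at 22.0 (19.7 to 24.3) and obst-F at 14.8 (12.8 to 16.7), with obst-J 1.49 times as high (1.26 to 1.77). obst-B was at 8.84 (7.23 to 10.5) and obst-H at 4.79 (3.45 to 6.13). obst-I at 1.80 (0.715 to 2.89), obst-G at 1.59 (0.861 to 2.32) and obst-E at 0.552 (0.00412 to 1.10) have overlapping bounds from each to the next and rest on 11, 19 and 4 implied reads. obst-E is known to shape the body of the larva and, through it, the puparium. An antisense RNA with no level analysed here covers 95.9% of the exonic bases of obst-I in dm6.

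Set side by side, the medians and the sums of binding and breakdown were above those of synthesis, while the order of binding and breakdown depended on the measure. The median FPKM was 8.84 over 9 genes for binding, 9.59 over 10 genes for breakdown and 2.92 over 3 genes for synthesis. With all members kept, the medians of the lower and upper bounds were 7.23 and 10.5 for binding and 8.08 and 11.1 for breakdown. The median FPKM of each lay between these values of the other, but the gap widened where members were left out. Such medians of bounds reflect the counting error of each gene and are no interval for a group median. They do not measure the spread over genes, from 0.552 to 560.4 for binding and from 0.0659 to 204.6 for breakdown. Without members whose locus overlaps another gene the medians were 4.79 for binding, 40.5 for breakdown and 4.72 for synthesis. Binding and synthesis were level among the genes left, but the groups were smaller. This choice left out obst-J and obst-F from binding and Cht2, Cht7, Cht8 and Cht12 from breakdown. It also left out kkv, so the synthesis median rested on mmy and Chs2 alone. In dm6 neither kkv nor Cht7 shares exonic bases with another gene. Without members whose exons overlap another gene, an alternative chosen after seeing the data, the medians were 8.84 for binding, 69.2 for breakdown and 2.92 for synthesis. Breakdown then lacked Cht9 and also Cht2, Cht6, Cht8 and Cht12, which share just 2.07% to 3.22% of their exonic bases. Its rise to 69.2 came with the loss of these genes, all at FPKM 9.78 or less. The summed FPKM was 735.1 for binding (59.4 times synthesis), 405.2 for breakdown (32.8 times) and 12.4 for synthesis. These sums are not corrected for the number of genes, 9, 10 and 3. obst-A alone held 76.2% of the sum for binding, and Cht10 50.5% of that for breakdown. On the log2 scale binding over breakdown was -0.12 by the median and 0.86 by the sum. With the Tweedle genes counted as binding its median fell below that of synthesis (log2 -3.38). Each of the 3 groups has members below the median of all genes listed, so neither a sum nor a median describes all of its genes.

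**Figure D3:**
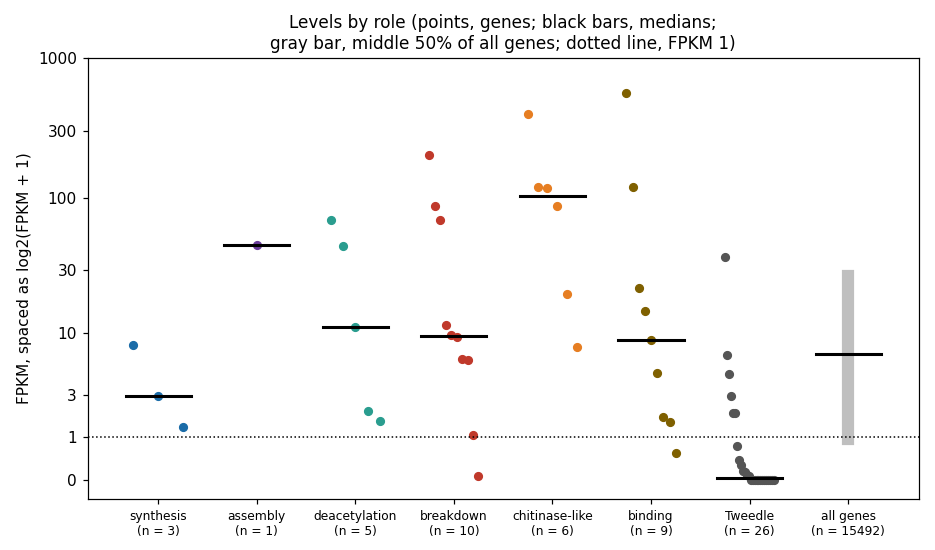
FPKM of the genes of each role (points), spaced as log2(FPKM + 1), with the median of each role as a black bar and, at the right, the median and the middle 50% of all 15492 genes listed. The medians are 8.84 for binding, 9.59 for breakdown, 2.92 for synthesis, 102.7 for the chitinase-like Idgf genes, 0.0355 for Tweedle and 6.90 for all genes listed.

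Most Tweedle genes had no reads or few. Of 26, 13 were at 0, against 10.9% of all genes listed, and a further 7 rested on fewer than 10 implied reads. A count of 0 allows up to 3 reads, which for the exonic lengths of these 13 genes in dm6 is an FPKM of 0.179 to 0.361. Low expression of them was therefore not detectable at this depth. Taken from the listed levels of Tweedle genes with a single read, 3 reads came to as much as 0.385, so the limit may be higher. TwdlE (FBgn0031957, 2L, 7857957 to 7860838) stood apart at 37.4 (34.3 to 40.4) and held 65.0% of the FPKM summed over the family. It was 5.56 times as high as the next member, Twdlalpha (4.47 to 6.999). This value has a limit: 71.9% of the exonic bases of TwdlE, on the minus strand, are shared in dm6 with exons of lectin-28C on the plus strand, which was listed at 97.8 (92.8 to 102.8). Their reads cannot be told apart where the exons overlap.

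Below TwdlE, Twdlalpha was at 6.71 (5.32 to 8.11), TwdlD at 4.64 (3.28 to 5.99), TwdlT at 2.94 (2.14 to 3.74), TwdlU at 2.01 (1.23 to 2.78) and TwdlG at 1.98 (1.38 to 2.57). From each of these genes to the next the bounds overlap, though Twdlalpha was 1.45 times as high as TwdlD with an interval just above 1 (1.009 to 2.10). TwdlD is known from mutants with a shorter, wider body, and TwdlU is annotated as a pseudogene in dm6. Between 0 and FPKM 1 lay TwdlO at 0.750, TwdlP at 0.371, TwdlX at 0.281, TwdlW at 0.161, TwdlV at 0.128, TwdlN at 0.0827 and TwdlF at 0.0711, with 7 implied reads for TwdlO and a single read for TwdlV, TwdlN and TwdlF. At 0 were TwdlB, TwdlC, TwdlH, TwdlJ, TwdlK, TwdlL, TwdlM, TwdlQ, TwdlR, TwdlS, TwdlY, TwdlZ and Twdlbeta.

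The gene structures differed along with the levels, a split noticed after the values were seen and given without a test. Of the 6 Tweedle genes with a transcript of 3 or more exons 5 were at FPKM 1 or more, and of the 20 with 1 or 2 exons 1 was, TwdlD. The 5 include the annotated pseudogene TwdlU. They also include TwdlE, whose level is uncertain because 71.9% of its exonic bases are shared with lectin-28C. None of the 8 Tweedle genes whose transcripts all have a single exon reached FPKM 1. Of the 26 genes 20 lie on 3R, of which 4 were at FPKM 1 or more and 10 at 0. In the whole family 6 and 13 of 26 were. Since the genes on 3R make up most of the family, this comparison cannot show whether they stand apart. Of all genes listed 74.5% were at FPKM 1 or more and 10.9% at 0.

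Position on the chromosome was not used to choose the genes, and 29 of the 60 fall into 6 clusters in which neighbouring members lie at most 10 kb apart. In 2 of these clusters all members were at FPKM 1 or more. Idgf1, Idgf2 and Idgf3, in a row on the plus strand of 2L from 16445280 to 16453176, spanned 0.45 on the log2(FPKM + 1) scale, and verm and serp spanned 0.60. In the other 4 clusters members at FPKM 1 or more stood beside members below it, and the ranges ran from 1.49 to 3.57.

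On 2R, from 16949151 to 16956813, the chitinase genes Cht8, Cht12, Cht4 and Cht9 follow each other within 7.66 kb. Their FPKM were 0.0659, 9.40, 11.7 and 1.09 in this order. Cht4 was 10.7 times as high as Cht9 (6.23 to 20.0), whereas it was 1.24 times as high as Cht12 (1.004 to 1.54). Cht12 and Cht8 run on opposite strands and share 35 exonic bases, 2.42% of those of Cht8. The 3.57 spanned by this cluster on the log2(FPKM + 1) scale is the widest range of the 6.

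The largest cluster holds 12 Tweedle genes on 3R from 22444840 to 22466776. In 21.9 kb it contains no other listed gene, and 8 of its members were at 0. TwdlD, at its right end, was the sole member at FPKM 1 or more, and TwdlS and TwdlR beside it were at 0. In the cluster of TwdlU, TwdlF, TwdlG and TwdlV on 3R from 69328 to 81316, levels were 2.01, 0.0711, 1.98 and 0.128 in this order. All of them are below the median of all genes listed (6.90), and TwdlF and TwdlV each rest on a single implied read. CG14644, which lies between TwdlG and TwdlV, was at 22.3 (19.4 to 25.1). On chromosome X from 16625124 to 16638398, TwdlX at 0.281, TwdlY and TwdlZ at 0 and Twdlalpha at 6.71 run on the same strand. Each of these loci also overlaps that of another gene, goe. CG32568, between TwdlZ and Twdlalpha, was at 5.51 (4.52 to 6.51) and shares 5.32% of the exonic bases of Twdlalpha on the same strand.

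**Figure D4:**
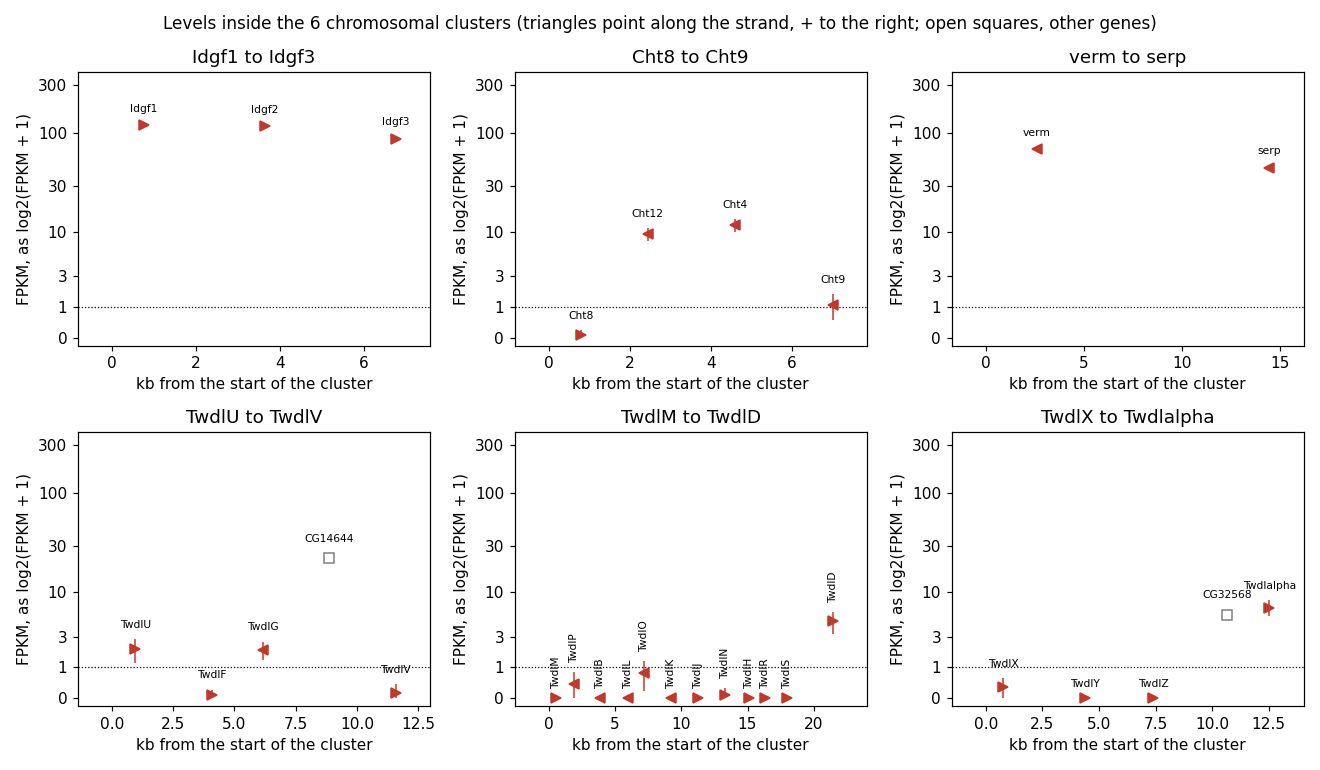
FPKM, spaced as log2(FPKM + 1), against the distance in kb from the start of each of the 6 clusters, with triangles that point along the strand, Cufflinks bounds as bars, open squares for genes that are not members and a dotted line at FPKM 1. The Idgf cluster spans 0.45 and the verm and serp cluster 0.60 on this scale, while 8 of the 12 genes from TwdlM to TwdlD lie at 0.

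Other genes of the pathway were taken from a list of 14, of which 13 were matched to a listed gene. Of these, 12 reached FPKM 1, against 74.5% of all genes listed. Their median was 8.39. In the hexosamine pathway, which supplies the substrate of mmy, Gfat2 was at 10.6 (9.48 to 11.8), nst at 9.04 (7.92 to 10.1) and Gnpnat at 226.9 (214.4 to 239.4). Gfat1 was not matched. mmy at 8.08 was therefore close to nst and Gfat2, with bounds that overlap those of nst and not those of Gfat2. reb and exp, known to be needed with kkv for chitin deposition, stood at 6.75 (5.83 to 7.67) and 2.24 (1.80 to 2.69). The hexosaminidases Hexo1, Hexo2 and fdl, which act on short sugar chains, lay between 6.69 and 8.39, and the transcription factor grh, a regulator of barrier epithelia, was at 8.93 (7.96 to 9.91). The Tweedle gene Tb, known from the Tubby mutant and outside the rule because of its symbol, was at 0.192 from 2 implied reads.

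The peritrophic matrix genes of this list were split. Peritrophin-15a was at 641.9 (610.4 to 673.4) and Peritrophin-15b at 693.9 (655.7 to 732.1), whereas Peritrophin-A, which also carries the name obst-D, was at 3.37 (2.13 to 4.61). Chs2, the synthase of the same lining, was at 1.37. Of 5 marker genes of the midgut 4 were at FPKM 1 or more, from Mal-A1 at 0.392 to Jon65Aiv at 2508. For fat body all 3 were, from 249.7 for Lsp1beta to 6499 for Fbp1, and for hemocytes 3 of 4, from Hml at 0.341 to He at 42.6. For tracheae trh was at 2.62 and pio at 38.0, and btl was not matched. For epidermis grh was lowest and ple, tyrosine hydroxylase, highest at 1784. Of 5 matched genes of the stage 4 were at FPKM 1 or more, from Edg84A at 0.177 to ImpE2 at 244.6. Of all genes listed 74.5% were at FPKM 1 or more, so these marker counts alone do not show that a tissue contributed. The share of each tissue in the levels above was not tested.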

How the data were processed

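RNA of whole white prepupae was measured in 4 species, and the D. melanogaster library was used. Reads were single-end. The authors trimmed and mapped them (TopHat) and called FPKM per gene (Cufflinks), and the submitters' processing notes add SAMtools, Bowtie and dm3 as the build. Tool versions for the RNA-seq and its read strand: not given in the sources used here. Each FPKM deposited by the authors has a lower and an upper bound, and its status was OK for all 60 members.

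Symbols came from a table that held 14872 of 15492 identifiers. The rule for the members uses symbols alone, but it and the lists were chosen with earlier results of these data known. Genes were named by role: members at FPKM 1 or more with bounds, the highest and lowest Tweedle genes, those just above and below FPKM 1, and the fixed pathway list. Locus starts in the files count from 0, and 1 was added. Exons, strand and protein length are from Ensembl release 115 (dm6), and no coordinates were converted. Reads were solved from bounds taken as FPKM plus and minus 2 FPKM over the square root of the reads, an inferred formula. Over all genes with fewer than 300 reads, 69.4% came out whole within 0.05 reads, so implied reads and the 22 ratio intervals are less certain than counts. This step was run on simulated data with bounds made by the same formula. That run cannot show whether Cufflinks used the formula. A count test was not run. Alternatives were the FPKM minimum (0.1 or 5), status, row choice, overlapping loci, the summary measure, group membership, pseudocount (1 or 0.1) and cluster distance (10 or 50 kb). No sequences were used. Software was Python 3.11.15, scipy 1.17.1, pandas 2.3.3, numpy 2.4.6 and matplotlib 3.10.9.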

Additional observations from a re-analysis of the deposited data

How the results depend on the processing

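Of 68 comparisons with an alternative, 32 left the value as it was, among them status OK and the largest row, which removed nothing. Of the 36 that changed it, 15 stayed within the bounds or within 1.5 times the count. Members at FPKM 1 or more numbered 44 at a minimum of 0.1 and 26 at a minimum of 5. Without members whose locus overlaps another gene 43 genes are left, so the count of 38 fell to 25. The medians were 4.72 for synthesis (mmy and Chs2 alone), 40.5 for breakdown, 47.6 for Idgf and 4.79 for binding. Without exon overlaps, chosen after seeing the data, the median of breakdown was 69.2, with Cht2, Cht6, Cht8, Cht9 and Cht12 left out. The median of synthesis without mmy was 2.14. Among members at FPKM 1 or more the medians were 11.8 for binding and 3.79 for Tweedle. On the log2 scale breakdown over synthesis was 1.72 by the median, 5.03 by the sum and 2.43 with the Idgf genes in breakdown. Binding over synthesis was 1.60 by the median, 5.89 by the sum and reversed to -3.38 with Tweedle genes in binding, since 20 of these 26 are below FPKM 1. Binding over breakdown was -0.12 by the median, reversed to 0.86 by the sum and 0.0072 by the mean log2, and was -0.83 with the Idgf genes in breakdown and -5.09 with Tweedle genes in binding. The range within clusters grew with a pseudocount of 0.1, to 6.15 for Cht8 to Cht9, 3.62 for TwdlU to TwdlV, 5.57 for TwdlM to TwdlD and 6.09 for TwdlX to Twdlalpha. At 50 kb the 6 clusters were unchanged. The depth given by the bounds alone yields no further value. No paired analysis was possible because each species has a single library. Below about 10 reads, levels of Tweedle genes cannot be ordered.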
